A study of Mus musculus with 8 samples.

Results

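The genes described here are 10 that macrophages switch on when they fuse into multinucleated cells or become osteoclasts: Atp6v0d2, Acp5, Ctsk, Mitf, Nfatc1, Oscar, Trem2, Gpnmb, Tnfrsf11a and Mmp12. They were chosen by symbol with their treated over control ratios in these samples already known, Atp6v0d2 because it was among the largest rises, so those ratios are given as a description, and nothing is supported by calls made on them. Of the 10 genes, 9 had rows in the deposited tables, with 13 transcripts of 19353 (9 of 17551 symbols). Nfatc1 was not analysed here. A transcript entered the tests with a mean value of at least 20 over the libraries, and 5 genes had one that did: Atp6v0d2, Ctsk, Gpnmb, Tnfrsf11a and Mmp12. The other 4 genes (8 transcripts) had mean values of 11.0 or less, against 68.4 for Tnfrsf11a, the lowest of the tested.

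The cells were lineage-negative bone marrow cells, a preparation enriched in blood progenitors, from C57BL/6 mice. All groups carried Ring1a-/- and Cdkn2a-/-, so the controls also lack the paralogue Ring1a, a ubiquitin ligase of Polycomb complex PRC1, and the tumour suppressor locus Cdkn2a. The treated libraries are labelled Ring1b KO and received 4-hydroxytamoxifen (OHT) for 72 h, and the controls are labelled Ring1b WT and received ethanol for 72 h. Each treatment was sequenced once in cells transduced with HOXA9, with PML-RARa or with MLL-AF9, and in cells labelled NT, whose table is headed with a word for an empty condition. That makes 8 libraries in 4 pairs, here called contexts, and the 4 contexts are the only replication. The labels do not say what drives the deletion, or whether the pairs came from separate animals, so the error between contexts may include technical spread.

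Osteoclasts are bone-resorbing cells made by fusion of monocyte and macrophage precursors. The cytokine CSF1 keeps the precursors alive, RANK ligand acts through its receptor RANK, and a costimulatory signal through receptors with ITAM adaptors raises calcium, and together they switch on NFATc1 and MITF, which activate the genes for fusion, acid secretion and matrix digestion. Several of the same genes are also used by macrophages that handle lipid and debris, so their RNA alone does not identify an osteoclast.

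RefSeq promoter windows (GRCm38.p6, 250 bases before to 50 after the start) were present for 8 of the 10 genes, with 13 windows, and Atp6v0d2 and Nfatc1 had none. The 4 tested genes with a window are shown because they were high in the same libraries. They are printed 5′ to 3′ on the strand of the gene, and capitals mark E-box letters (CACGTG or CATGTG, the kind of site MITF binds), AP-1 letters (TGANTCA) and PU.1 letters (GAGGAA), searched on both strands.
Ctsk, chr3:95498960-95499259, plus strand: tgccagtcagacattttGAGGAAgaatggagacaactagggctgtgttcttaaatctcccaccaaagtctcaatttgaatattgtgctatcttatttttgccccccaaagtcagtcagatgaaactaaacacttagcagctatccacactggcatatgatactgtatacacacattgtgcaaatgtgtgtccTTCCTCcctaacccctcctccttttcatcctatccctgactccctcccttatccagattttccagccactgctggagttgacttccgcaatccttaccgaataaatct
Gpnmb, chr6:49036268-49036567, plus strand: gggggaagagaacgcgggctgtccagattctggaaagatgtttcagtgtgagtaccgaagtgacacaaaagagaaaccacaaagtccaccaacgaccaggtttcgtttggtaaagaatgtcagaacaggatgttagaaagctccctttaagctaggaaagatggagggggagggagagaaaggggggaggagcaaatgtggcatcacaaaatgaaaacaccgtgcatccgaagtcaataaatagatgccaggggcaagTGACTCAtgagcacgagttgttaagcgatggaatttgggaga
Mmp12 (the start of NM_008605), chr9:7347124-7347423, plus strand: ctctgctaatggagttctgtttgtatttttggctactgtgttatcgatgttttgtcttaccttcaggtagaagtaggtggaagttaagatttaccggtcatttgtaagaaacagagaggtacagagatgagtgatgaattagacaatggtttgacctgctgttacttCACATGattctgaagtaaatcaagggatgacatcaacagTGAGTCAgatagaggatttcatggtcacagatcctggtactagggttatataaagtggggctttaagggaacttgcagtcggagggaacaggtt
Tnfrsf11a, chr1:105780473-105780772, plus strand: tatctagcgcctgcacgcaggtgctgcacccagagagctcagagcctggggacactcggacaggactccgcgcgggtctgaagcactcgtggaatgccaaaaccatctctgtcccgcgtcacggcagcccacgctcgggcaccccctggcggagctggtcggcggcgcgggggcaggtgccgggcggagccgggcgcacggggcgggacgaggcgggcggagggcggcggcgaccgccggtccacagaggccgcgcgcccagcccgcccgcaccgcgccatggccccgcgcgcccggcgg
The Mmp12 window held a CACATG 83 bases before the start and a TGAGTCA 44 bases before it. The Gpnmb window held a TGACTCA 8 bases after the start of the window's gene record. No start of the measured Gpnmb transcript was matched to that window. The Ctsk window held 2 PU.1 matches, and the Tnfrsf11a window held no match to any of the motifs. Among the genes not printed, Acp5 (the start of NM_007388) and Oscar each had a CACATG, 90 and 6 bases before the start. Trem2 had a TGAATCA 9 bases before the start of NM_031254, which is not the transcript measured here. Over the 13 windows, CATGTG was in 3, TGANTCA in 3, GAGGAA in 4 and CACGTG in 0, while NFAT letters (GGAAA) were in 9. Of all 32851 windows, 14.2% held CATGTG, 7.81% TGANTCA, 28.3% GAGGAA, 7.15% CACGTG and 61.3% GGAAA. A single NFAT match overlapped a PU.1 match, in Oscar. A match is a run of letters and not a binding site.

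Values below are the authors' normalised read counts per transcript, scaled together over the 8 libraries, and the lowest entry of each library is worth 1 read. Recovered read totals were 4226751 to 6641843 in the OHT libraries and 5342836 to 6998223 in the controls. The deleted gene could not be checked: Rnf2, which encodes Ring1b, stood at 767 to 856 in the OHT libraries and 666 to 990.4 in the controls, and the deleted stretch is not stated in the labels. Reads also lay on Ring1, labelled knocked out, at 23.8 to 77.8 in the OHT libraries and 109 to 191 in the controls. Folds within a context are OHT over control with a 95% exact conditional interval that covers counting error only. Log2 ratios are on the log2(value + 1) scale, which understates the change of low values.

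Atp6v0d2 encodes the d2 subunit of the membrane part of the V-ATPase, the proton pump that acidifies lysosomes and the resorption space, and it is required for precursor fusion in mouse. In the OHT libraries Atp6v0d2 (NM_175406) had values of 1325 in HOXA9, 709 in PML-RARa, 1052 in MLL-AF9 and 1223 in NT cells, against control values of 12.5, 11.5, 2.12 and 181 in the same order. All 4 OHT libraries stood within 1.87-fold of each other, while the controls spread over 85.6-fold and NT was the highest of them. The fold was 106 (64.3 to 191) in HOXA9, 61.8 (35.1 to 120) in PML-RARa and 6.75 (5.84 to 7.83) in NT. In MLL-AF9 the control had 2 reads, and the fold of 497 had an interval of 137 to 4109. The mean log2 ratio of Atp6v0d2 was 5.90 ± 0.94 (limma SE, 4 contexts), and it was higher with OHT in 4 of 4 contexts.

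Ctsk encodes cathepsin K, the collagen-cutting protease of osteoclasts. Its transcript NM_007802 had 254 in HOXA9, 94.0 in PML-RARa, 422 in MLL-AF9 and 380.3 in NT cells with OHT, against 7.47, 2.87, 6.35 and 67.8 in the controls. The groups did not overlap, and the NT control again lay above the other controls. In PML-RARa Ctsk had both the lowest OHT value and the lowest control value, and its fold of 32.8 (10.8 to 162) rested on 3 control reads. The Ctsk fold was 34.0 (17.7 to 75.2) in HOXA9, 66.4 (30.1 to 182) in MLL-AF9 and 5.61 (4.40 to 7.21) in NT, with a mean log2 ratio of 4.46 ± 0.57.

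Gpnmb encodes a type I membrane glycoprotein of macrophages, osteoclasts and melanocytes and is a target of MITF. With OHT it had the highest level of the 9 genes in every context, by normalised read count and per kb, at 4228 in HOXA9, 3348 in PML-RARa, 5585 in MLL-AF9 and 3485 in NT cells with OHT, against 954 in the HOXA9, 285 in the PML-RARa, 119 in the MLL-AF9 and 1322 in the NT control. The OHT libraries stood within 1.67-fold of each other and the controls within 11.1-fold. The fold of Gpnmb was 4.43 (4.15 to 4.73) in HOXA9, 11.7 (10.4 to 13.3) in PML-RARa, 47.1 (39.0 to 57.3) in MLL-AF9 and 2.64 (2.48 to 2.80) in NT. Gpnmb reached 1.26 reads per base of transcript, and reads in these tables level off: 402 of 18873 transcripts passed 1 read per base in any library and 1 passed 2. Ratios of such abundant transcripts can be compressed.

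Mmp12 encodes macrophage elastase, a secreted metalloproteinase that cuts elastin. Mmp12 had 2338 in HOXA9, 2008 in PML-RARa, 3604 in MLL-AF9 and 2180 in NT cells with OHT, against 292, 172, 291 and 792 in the controls. Its groups did not overlap, and NT had the highest control and the smallest fold. That fold was 2.75 (2.55 to 2.98) in NT, against 8.0 (7.16 to 8.97) in HOXA9, 11.7 (9.99 to 13.7) in PML-RARa and 12.4 (10.9 to 14.1) in MLL-AF9. Mean log2 ratios were 2.90 ± 0.41 for Mmp12 and 3.16 ± 0.73 for Gpnmb.

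Tnfrsf11a encodes RANK, the receptor for RANK ligand on osteoclast precursors. Tnfrsf11a had 203 in HOXA9, 49.99 in PML-RARa, 175 in MLL-AF9 and 69.6 in NT cells with OHT, against 4.98, 4.78, 25.4 and 14.9 in the controls. HOXA9 and MLL-AF9 were the high OHT libraries, and the highest control was MLL-AF9, not NT. The fold of Tnfrsf11a was 40.7 (18.4 to 112) in HOXA9, 10.4 (4.14 to 33.8) in PML-RARa, 6.87 (4.42 to 11.1) in MLL-AF9 and 4.67 (2.75 to 8.36) in NT, with a mean log2 ratio of 3.28 ± 0.51.

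**Figure D1:**
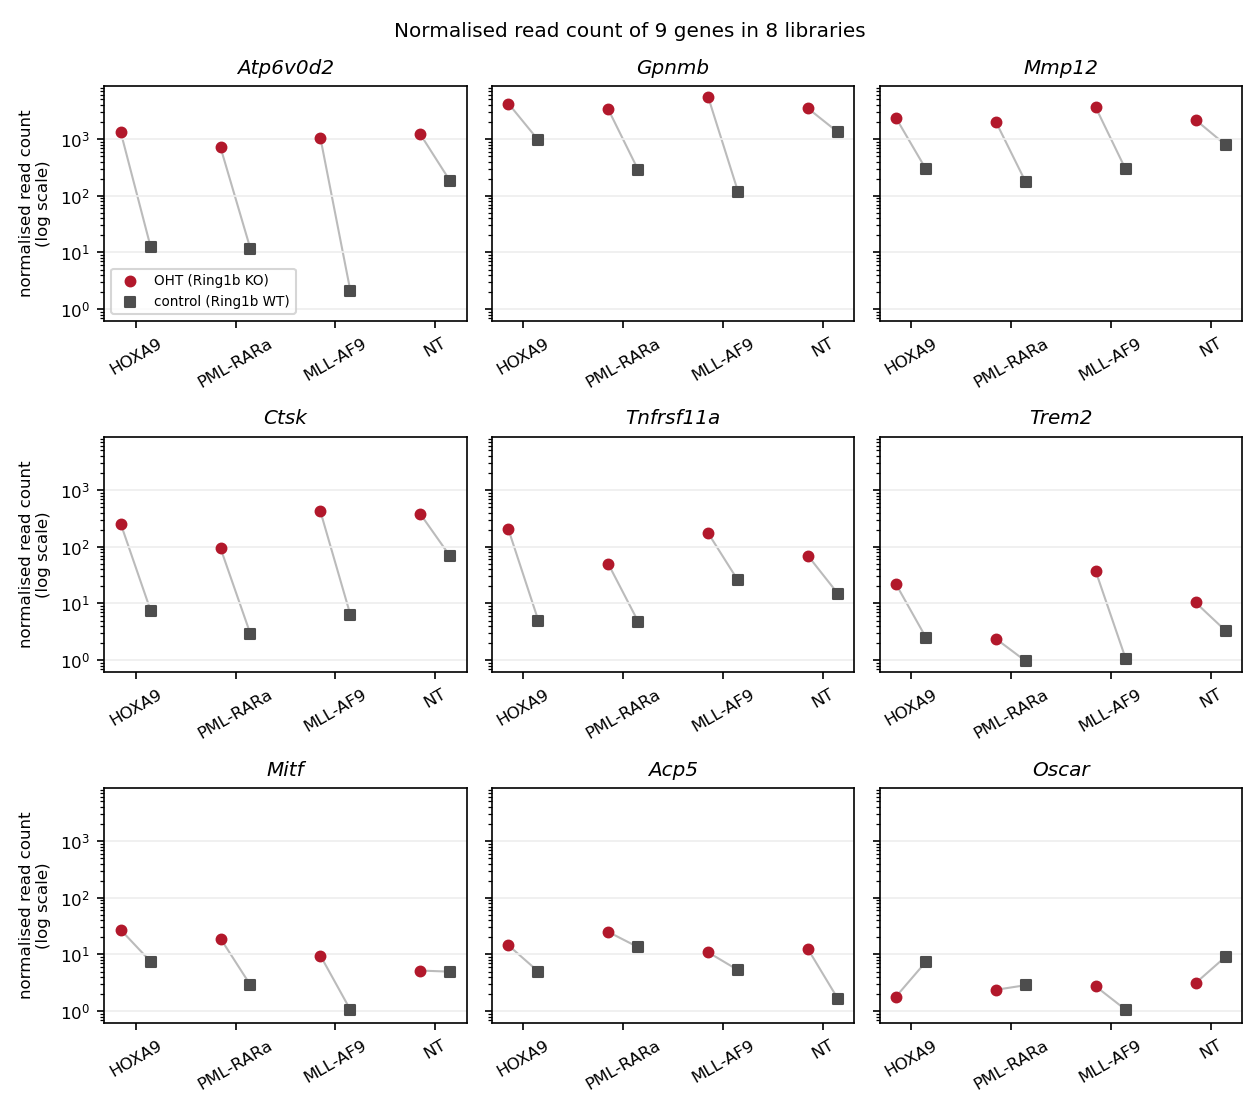
Normalised read count (log scale) of 9 genes in each context, with the OHT library (red circle) left of the control (grey square) of the same context. Genes with several transcripts are shown by their most abundant one. Atp6v0d2, Gpnmb, Mmp12, Ctsk and Tnfrsf11a are higher with OHT in every context, with every OHT value above every control value, and Oscar is not.

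The remaining genes were near the floor. Trem2 encodes a lipid-sensing receptor that signals through the ITAM adaptor DAP12, and its transcript NM_001272078 had 21.7 in HOXA9, 2.38 in PML-RARa, 36.8 in MLL-AF9 and 10.4 in NT cells with OHT, against 2.49, 0.957, 1.06 and 3.31 in the controls. Trem2 was highest with OHT in HOXA9 and MLL-AF9 and rested on 2 reads with OHT in PML-RARa. The fold of Trem2 was 8.72 (2.65 to 45.2) in HOXA9, 34.8 (5.73 to 1424) in MLL-AF9 and 3.14 (0.906 to 13.7) in NT, and 2.49 (0.130 to 147) in PML-RARa. Controls with 1 read, in PML-RARa and MLL-AF9, may hold 0 or 1 read.

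Mitf encodes the transcription factor that, with its relative Tfe3, drives osteoclast genes in mouse. Its most abundant transcript, NM_001113198, had 27.1 in HOXA9, 19.0 in PML-RARa, 9.55 in MLL-AF9 and 5.20 in NT cells with OHT, against 7.47, 2.87, 1.06 and 4.96 in the controls. Those values overlap between the groups, and in NT they were 5 and 6 reads. With its 3 transcripts added, the fold of Mitf was 3.17 (1.56 to 6.97) in HOXA9 and 4.73 (1.71 to 16.2) in PML-RARa. The intervals of 3.87 (0.965 to 22.2) in MLL-AF9 and 1.26 (0.411 to 3.84) in NT included 1. In the MLL-AF9 control each of the 3 transcripts stood at the lowest entry, which may hold 0 or 1 read. For NM_001113198 alone the MLL-AF9 fold was 9.02 (1.16 to 406), on 7 reads against 1, so the sum is no firmer there.

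Acp5 encodes TRAP, the tartrate-resistant acid phosphatase used as the classic osteoclast stain. The 3 transcripts of Acp5 added up to 21.7 in HOXA9, 29.8 in PML-RARa, 13.6 in MLL-AF9 and 17.7 in NT cells with OHT, against 7.47, 20.1, 11.6 and 4.96 in the controls. The PML-RARa control lay above the MLL-AF9 and NT libraries with OHT. Folds of summed Acp5 were 2.91 (1.30 to 7.11) in HOXA9 and 3.56 (1.34 to 11.0) in NT, and 1.48 (0.796 to 2.78) in PML-RARa and 1.17 (0.446 to 3.04) in MLL-AF9. Both Acp5 and Mitf belong to the 1509 symbols with several transcripts, whose transcripts had a median of 2.63 reads per kb against 33.6 for symbols with 1, so low values of these genes are measured poorly.

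Oscar encodes an osteoclast receptor that binds collagen and signals through an ITAM adaptor. It had 1.81 in HOXA9, 2.38 in PML-RARa, 2.73 in MLL-AF9 and 3.12 in NT cells with OHT, against 7.47, 2.87, 1.06 and 9.10 in the controls. Oscar was higher with OHT in 1 of 4 contexts, MLL-AF9, with 2 reads against 1, and it had at most 11 reads in any library. Every interval of its fold included 1, so no difference was detectable at this depth.

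**Figure D2:**
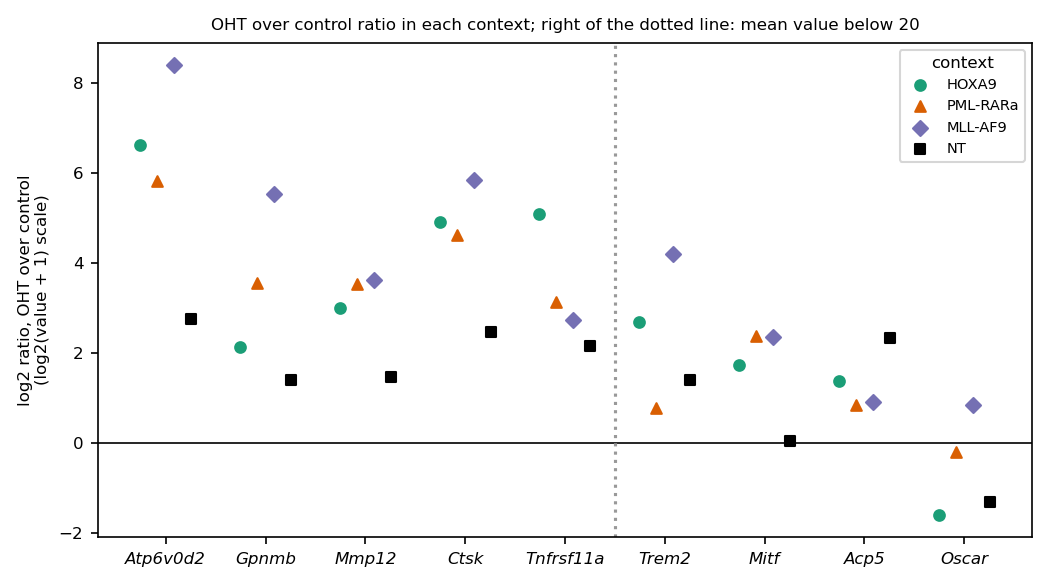
Log2 ratio of OHT over control (log2(value + 1) scale) for the same 9 transcripts, 1 point per context. NT (black square) has the lowest ratio for Atp6v0d2, Gpnmb, Mmp12, Ctsk and Tnfrsf11a, and for Acp5 it has the highest, 2.34. Genes right of the dotted line had mean values below 20.

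Per kb of transcript, the mean value with OHT was 1124 for Gpnmb, 702 for Mmp12, 424 for Atp6v0d2, 190 for Ctsk, 24.7 for Tnfrsf11a and 16.9 for Trem2. The first 4 kept that order in each of the 4 OHT libraries, and across libraries the ranges of Gpnmb (905 to 1509) and Mmp12 (557 to 999) overlapped, while those of Mmp12, Atp6v0d2 (279.4 to 522) and Ctsk (62.2 to 278.8) did not. Tnfrsf11a and Trem2 did not keep one: in MLL-AF9 with OHT they stood at 34.7 and 34.9 per kb. In the controls the mean value per kb was 181 for Gpnmb, 107 for Mmp12, 20.4 for Atp6v0d2, 14.0 for Ctsk and 2.49 for Tnfrsf11a. The means of Atp6v0d2 and Ctsk rest largely on NT, while Tnfrsf11a was highest in the MLL-AF9 control (5.06 per kb, against 2.96 in NT). The order did not hold in each control: Atp6v0d2 had 4.90 in HOXA9, 4.52 in PML-RARa, 0.834 in MLL-AF9 and 71.4 in NT per kb. In the MLL-AF9 control Mmp12 (80.7 per kb) lay above Gpnmb (32.0), and Ctsk (4.20) above Atp6v0d2.

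Over the 4 contexts, a limma fit with the context as a block called 4 of the 5 tested genes higher with OHT (Atp6v0d2, Ctsk, Tnfrsf11a and Mmp12) at an adjusted p under 0.05, and Gpnmb did not pass, although edgeR and DESeq2 called all 5. Of the 10599 transcripts tested, 13.9% were called, 6.40% higher and 7.48% lower. For all 5 genes every OHT value lay above every control value, as it did for 8.28% of all transcripts tested. Because the genes were chosen on this contrast, nothing is read from those counts.

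The ratios were smaller in NT than in transduced cells for all 5 tested genes. The share of all transcripts with a smaller ratio in NT was not counted, so this is not particular to these genes. The median log2 ratio of the 11 tested macrophage markers described below was also smaller in NT, at 2.05 against 4.48 to 6.30 in the transduced contexts. For Atp6v0d2 the log2 ratio averaged 6.95 in the 3 transduced contexts and was 2.75 in NT, and the difference, NT minus transduced, was -4.20 ± 1.11 (limma SE). For Ctsk the difference was -2.66 ± 0.59 and for Mmp12 -1.93 ± 0.39. Gpnmb and Tnfrsf11a had differences of -2.35 ± 1.43 and -1.503 ± 1.07. The genes were chosen on the ratios compared here and NT is a single pair, so no p is given for them. Over all 10599 transcripts limma called 0 for this difference (5.41% at an unadjusted p under 0.05), edgeR 0 and DESeq2 64. In values, the OHT library of NT lay within the range of the transduced OHT libraries for each of the 5 genes, and it was the NT control that stood above the transduced controls for Atp6v0d2, Ctsk, Gpnmb and Mmp12.

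Related genes were read from lists of 181 genes that span signalling, fusion, resorption, V-ATPase, metalloproteinase and lipid macrophage genes. Of the 181 genes, 129 had a transcript in the test. By limma 29 rose and 1 fell, where 6.40% of all transcripts tested were called higher and 7.48% lower. Those calls need all 4 contexts: without the NT pair none of the listed genes passed (27 of all transcripts did), and leaving out any one transduced pair (HOXA9, PML-RARa, MLL-AF9) gave 0 limma calls, with 2971 to 3321 at an unadjusted p under 0.05. The median log2 ratio of all transcripts tested was -0.03. Each listed gene was read by its transcript with the highest mean value only. Among the genes called, that mean value was low for Rcan1 (22.1), Csf1 (26.1), Ikbkb (38.6) and Sirpa (45.0), so their ratios are measured less well.

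RANK ligand had lower values with OHT in the 3 transduced contexts, but not in NT. Any link between its level and that of its receptor was not tested. Tnfsf11, which encodes RANK ligand, had 120 in HOXA9, 63.1 in PML-RARa, 16.4 in MLL-AF9 and 21.8 in NT cells with OHT. The controls had 423, 257, 46.6 and 11.6 in the same order. Both NT values were low and no interval was computed for them, so an opposite direction in NT is not shown. The mean log2 ratio of Tnfsf11, -1.10 ± 0.53, did not pass (limma adjusted p = 0.20). Tnfrsf11b, the decoy receptor osteoprotegerin, had mean values below 20, with 2.71, 17.9, 2.73 and 29.1 with OHT and 0.830, 1.91, 1.06 and 7.45 in the controls. In the list of RANK signalling genes (27, with 20 tested), 2 rose and 1 fell, with a median log2 ratio of 0.12. The risers were the noncanonical NF-kappaB subunit Relb (1.99 ± 0.41, limma adjusted p = 0.046) and the AP-1 subunit Jun (1.34 ± 0.27, adjusted p = 0.044). The kinase Ikbkb fell (-1.26 ± 0.27, limma adjusted p = 0.049).

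The receptor for CSF1 rose. Csf1r had 3763 in HOXA9, 1317 in PML-RARa, 3804 in MLL-AF9 and 1778 in NT cells with OHT, against 826, 336, 274 and 659 in the controls (log2 ratio 2.34 ± 0.41, limma adjusted p = 0.039). Its ligand Csf1 rose as well (2.05 ± 0.43, adjusted p = 0.046), and these were 2 of 5 tested in the list, whose median was 0.30. Spi1, which encodes the myeloid transcription factor PU.1, had a log2 ratio of 0.26 ± 0.13 (limma adjusted p = 0.21). In the ITAM, calcium and NFAT list, 3 of 21 rose and none fell (median 0.30): the B-cell linker Blnk (4.64 ± 0.65, limma adjusted p = 0.035), the inhibitory receptor Pirb (1.41 ± 0.29, adjusted p = 0.046) and the calcineurin regulator Rcan1 (1.06 ± 0.20, adjusted p = 0.041). Pirb has near-identical relatives, so its count is uncertain. The adaptor Tyrobp (DAP12), partner of Trem2, had 0.50 ± 0.11 (limma adjusted p = 0.051).

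Of the relatives of Mitf, Tfec was the one tested and had 1463, 587, 1386 and 416 with OHT in HOXA9, PML-RARa, MLL-AF9 and NT cells, against 1273, 722, 1188 and 1033 in the controls (log2 ratio -0.30 ± 0.30, limma adjusted p = 0.50). Tfeb had at most 32.6 and Tfe3 at most 4.52 in any library. Both were read by their most abundant transcript only, so these values do not show that the genes are little expressed.

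The fusion list gave 2 rises and no fall among 18 tested (median 0.46). They were Sirpa, the receptor of the surface protein CD47 (1.04 ± 0.20, limma adjusted p = 0.042), which has near relatives, and Il4ra, the interleukin-4 receptor (0.64 ± 0.12, adjusted p = 0.042). Dcstamp, a membrane protein needed for fusion in mouse, was below the filter with 6.33, 30.9, 87.3 and 8.31 with OHT in HOXA9, PML-RARa, MLL-AF9 and NT cells, against 0.830, 0.957, 2.12 and 3.31 in the controls. Its partner Ocstamp had at most 6.82. Set against the name of the group, then, Atp6v0d2, Ctsk and Tnfrsf11a were higher with OHT than in the controls, as was Dcstamp below the filter. The osteoclast-defining genes Acp5, Oscar and Ocstamp had few reads, and Acp5 is among the poorly measured symbols with several transcripts. Tnfrsf11a was itself low: in PML-RARa with OHT it had 9.94 per kb, against 18.4 for the most abundant Acp5 transcript. The genes are therefore described one by one and no cell type is named from them.

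In the list of resorption and lysosome genes, 8 of 15 tested rose and none fell, and the median was 0.80. The leading ones were the chloride exchanger Clcn7 (1.35 ± 0.22, limma adjusted p = 0.037), the lysosomal proteases Ctsb (1.12 ± 0.15, adjusted p = 0.035) and Ctsl (1.04 ± 0.16, adjusted p = 0.036) and the acid phosphatase Acp2 (1.02 ± 0.18, adjusted p = 0.038). The largest of them was less than the log2 ratio of Ctsk, 4.46, but Ctsk was chosen with its ratio known, so this follows in part from the choice. Of the 15 tested, 6 passed 0.5 reads per base, among them 3 of the 8 that rose, and ratios of such abundant transcripts can be compressed.

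Atp6v0d2, chosen for its large rise, is here set beside the other pump subunits, and that its ratio is larger follows in part from the choice. Of 16 other genes tested in the V-ATPase list, 4 rose and none fell: Atp6v1b2 (0.87 ± 0.19), Atp6v1d (0.79 ± 0.15), Atp6ap1 (0.72 ± 0.11) and Atp6v1h (0.66 ± 0.12), with limma adjusted p from 0.036 to 0.050. The log2 ratios of the 16 ran from -0.33 to 0.87 with a median of 0.53, and 15 of 16 were higher with OHT in all 4 contexts, as were 22.9% of all transcripts tested. Atp6v0d1, the ubiquitous form of the same subunit, had 1448 in HOXA9, 1641 in PML-RARa, 1775 in MLL-AF9 and 1540 in NT cells with OHT, against 1064, 1169, 977 and 1148 in the controls (0.55 ± 0.13, limma adjusted p = 0.053). Per kb of transcript, Atp6v0d1 had 889 to 1090 with OHT, where Atp6v0d2 had 279 to 522, and 600 to 718 in the controls, where Atp6v0d2 had 0.834 to 71.4. Of the 16 subunits 12 passed 0.5 reads per base, and since the size factor was lower with OHT in every pair, a transcript with the same reads in both libraries would show a log2 ratio of 0.28. How far that ceiling moved the subunits was not tested. Tcirg1, which encodes the a3 subunit of the pump, was held in the resorption list and is not among the 16. Read by its most abundant transcript only, it had a mean value of 32.9 and a log2 ratio of 0.05 ± 0.47 (limma adjusted p = 0.95). Tcirg1 was higher with OHT in 3 of 4 contexts, with a log2 ratio of -1.65 in NT.

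Mmp12 was one of several metalloproteinases that were high with OHT. In the family and its inhibitors, 3 of 13 others tested rose and none fell, and the median was 1.02. Mmp13, a collagenase, had 3.11 ± 0.46 (limma adjusted p = 0.036), the gelatinase Mmp2 had 3.10 ± 0.32 (adjusted p = 0.035) and Mmp27 had 2.85 ± 0.53 (adjusted p = 0.041). Mmp9, the gelatinase of osteoclasts and neutrophils, had 2.005 ± 0.64 and did not pass (limma adjusted p = 0.093).

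**Figure D3:**
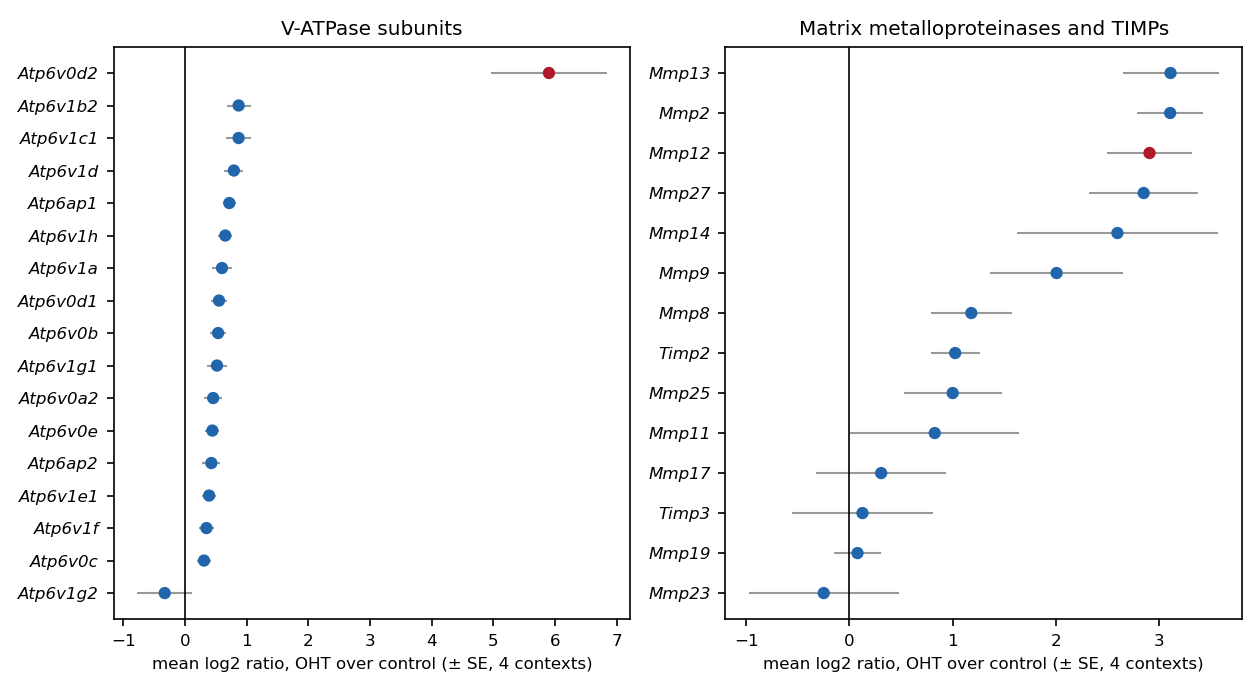
Mean log2 ratio of OHT over control (± limma SE, 4 contexts) for each tested gene of the V-ATPase list (left, without Tcirg1) and of the metalloproteinase and inhibitor list (right), with Atp6v0d2 and Mmp12 in red. Atp6v0d2, which was chosen for its rise, is at 5.90 and the highest of the 16 other subunits is at 0.87, while Mmp12, at 2.90, lies among Mmp13, Mmp2 and Mmp27.

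Gpnmb, Trem2 and Mmp12 are also genes of lipid-laden and damage-associated macrophages. In that list 6 of 19 tested rose and none fell (median 1.12). The leading ones were the fatty acid carrier Fabp4 (5.23 ± 0.94, limma adjusted p = 0.039), the integrin Itgax (3.95 ± 0.54, adjusted p = 0.035), the beta-glucan receptor Clec7a (2.15 ± 0.29, adjusted p = 0.035) and Csf1.

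Markers of macrophages were high in the same libraries. Of 12 macrophage markers 11 were tested and 10 rose, led by Marco (5.63 ± 0.78), Siglec1 (5.28 ± 0.61), C1qa (5.17 ± 0.70) and C1qc (4.86 ± 0.80), with limma adjusted p from 0.035 to 0.036, and their median was 4.65. The summed level of the 12 was 20665 in HOXA9, 10082 in PML-RARa, 14817 in MLL-AF9 and 10344 in NT cells with OHT, against 3464, 2661, 1156 and 3088 in the controls, and none of the 12 was at 3 reads or fewer in all 8 libraries. Marco stood at the lowest entry in the 3 transduced controls, Siglec1 in the PML-RARa control and C1qa and C1qc in the MLL-AF9 control. Csf1r, Emr1 and Mrc1 made up 64.3% of the sum with OHT and 73.3% in the controls. More cells of a type and more RNA per cell cannot be told apart in such bulk libraries. Relative to that sum, the fold of Atp6v0d2 was 17.8 in HOXA9, 16.3 in PML-RARa, 38.8 in MLL-AF9 and 2.01 in NT, and that of Ctsk was 5.70, 8.65, 5.18 and 1.67. The fold of Gpnmb was 0.743, 3.10, 3.68 and 0.787 in the same order, that of Mmp12 1.34, 3.08, 0.966 and 0.822, and that of Tnfrsf11a 6.82, 2.76, 0.536 and 1.40. These quotients change with the markers used. The median log2 ratio of the 11 tested markers was 4.88 in HOXA9, 4.48 in PML-RARa, 6.30 in MLL-AF9 and 2.05 in NT. Against that median the log2 ratio of Ctsk differed by 0.04, 0.13, -0.46 and 0.42, and that of Atp6v0d2 by 1.75, 1.35, 2.10 and 0.69. For the marker C1qa the same differences were 1.41, 0.83, 0.14 and 0.59. Atp6v0d2 was chosen for its large rise, so its place above the marker sum and median follows in part from the choice. The MLL-AF9 control of Atp6v0d2 had 2 reads. Gpnmb and Mmp12 lay below the marker median in all 4 contexts, by log2 differences of -0.66 to -2.73 and -0.59 to -2.68. The part of macrophage content in the ratios of the 5 genes was not tested.

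**Figure D4:**
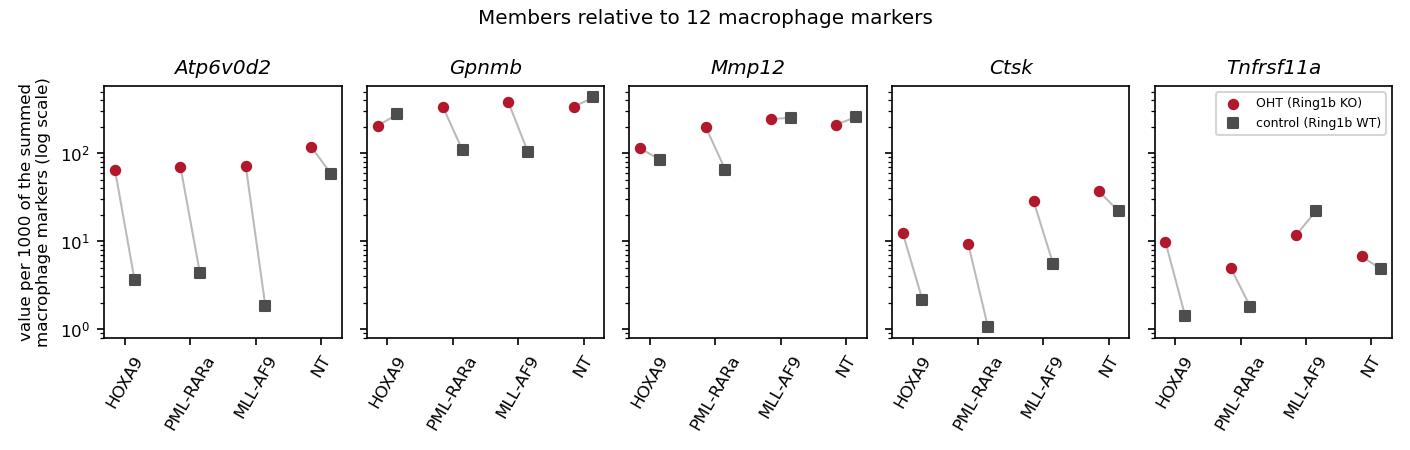
Value of each tested gene per 1000 of the summed normalised count of 12 macrophage markers (log scale). OHT (red circle) is left of the control (grey square) in each context. Atp6v0d2 was chosen for its rise. Against this sum, carried mostly by Csf1r, Emr1 and Mrc1, Atp6v0d2 and Ctsk lie higher with OHT in all 4 contexts and Gpnmb lies lower in HOXA9 and NT, while against the median marker ratio Ctsk differs by -0.46 to 0.42 on the log2 scale.

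Other cell types had fewer markers past the test. Of the dendritic markers 2 of 5 tested rose, Itgax and H2-Aa (3.45 ± 0.64, limma adjusted p = 0.040). Itgax is also in the lipid macrophage list. The other tested dendritic markers did not pass by limma: Cd74 had 2.83 ± 0.86 and H2-Ab1 0.28 ± 0.44. Flt3 had -1.16 ± 0.39 and was lower with OHT in all 4 contexts. The sum over 9 dendritic markers was 1140 to 2419 with OHT against 440 to 845 in the controls, with Siglech at 3 reads or fewer. By limma 0 of 8 mast cell markers passed (4 at an unadjusted p under 0.05, and 2 called by edgeR and 4 by DESeq2), and their sum over 10 genes was 3866 to 19884 with OHT and 1683 to 14471 in the controls, high in PML-RARa and NT in both treatments. Osteoblast markers, which would mark bone-forming cells, summed to 77.9 to 207 with OHT and 74.5 to 774 in the controls, with Sp7, Bglap, Bglap2 and Pth1r at 3 reads or fewer, and limma called 0 of 3 tested (1 unadjusted, 0 by edgeR and by DESeq2). Melanocyte markers, relevant because melanocytes also express Gpnmb and Mitf, summed to 45.0 to 61.5 with OHT and 58.7 to 75.6 in the controls, with Mlana at the floor, and limma called 0 of 2 tested (1 unadjusted, 0 by edgeR and by DESeq2). Progenitor markers summed to 6695 to 7265 with OHT and 8402 to 10083 in the controls, and 2 of 7 tested fell, Myb (-1.89 ± 0.21, limma adjusted p = 0.035) and Cebpa (-0.72 ± 0.13, adjusted p = 0.040). Neutrophil markers gave 0 limma calls of 12 tested (7 unadjusted, 0 by edgeR and 7 by DESeq2), with sums of 7981 to 17820 with OHT and 10893 to 17539 in the controls. Whether any of these sums bears on the 10 genes was not tested.

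Over the 8 libraries, the pattern of Atp6v0d2 was most like that of Fabp4 (Pearson r = 0.99), C1qa (0.99), Trp53inp2 (0.99), C1qb (0.99) and Snx8 (0.99) on the log2 scale, among 10594 transcripts of which 57 had r of at least 0.95. Fabp4 stood at 396 to 532 with OHT and 1.06 to 88.5 in the controls, and so shared with Atp6v0d2 a narrow OHT range and an NT control above the others. The r between Atp6v0d2 and the other tested genes was 0.95 for Ctsk, Gpnmb and Mmp12 and 0.78 for Tnfrsf11a, and the lowest within the group was 0.70, between Gpnmb and Tnfrsf11a. The 8 points share their treatment and context, so these values are descriptions.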

How the data were processed

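Per the labels' protocols, RNA of 8 samples was made into TruSeq libraries, which do not mark the strand. The submitters' processing notes name TopHat, DESeq and mm9, with no versions; what counted the reads is not given in the sources used here. The signal in each deposited table is a normalised read count (base mean, per the file headers) of every RefSeq transcript. The deposited ratio (fold change), its log2 and the authors' unadjusted p-value compare 1 library with 1 library and were not used for results.

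Each value is a whole multiple of the library's lowest entry, so whole reads were recovered for 100% of values (tolerance 0.02). Totals were 4226751 to 6998223 reads, and from 15.1% to 20.0% of transcripts stood at the lowest entry, which may stand for 0 or 1 read. Because the values are normalised, log2(value + 1) was tested two-sided with limma 3.58.1 in R 4.3.3, context being a block, over 10599 transcripts with a mean of at least 20 and Benjamini-Hochberg adjustment. The block pairs libraries by their context label. Alternatives were edgeR 4.0.16 and DESeq2 1.42.0 on recovered reads and the settings listed in the closing section. The fit was tested on simulated data. Transcript lengths came from the reference annotation, and promoter windows from RefSeq.

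The 10 genes and the other lists were chosen with earlier results of these data known. Named genes are all members, 11 pathway genes, up to 4 genes per list past the test with the largest mean ratio, and the 5 transcripts most like Atp6v0d2. Tcirg1 was named outside these rules. The result of 1 gene list is not reported here.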

Additional observations from a re-analysis of the deposited data

How the results depend on the processing

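The mean log2 ratios of Atp6v0d2, Ctsk, Gpnmb, Tnfrsf11a and Mmp12 stayed positive in every setting run. Each of these genes had a positive ratio in all 4 contexts, so a change of sign was hardly possible and nothing is read from this. Over all transcripts the 4-context test called 1471 in the limma fit, 354 with no filter on low values, 2235 by edgeR and 3130 by DESeq2, and 0 to 549 without 1 context pair (0 to 27 by limma, 0 to 549 by edgeR). Of the 5 tested genes it called 4, against 5 with a pseudocount of 10, a mean of at least 50, no context block, edgeR or DESeq2, 2 with no filter, 2 without transcripts over 0.5 reads per base (which leaves out Atp6v0d2, Gpnmb and Mmp12) and 0 to 4 without a pair. Of the pathway genes it called 30, against 5 with no filter, 18 without transcripts over 0.5 reads per base, 61 by edgeR, 73 by DESeq2 and 0 to 22 without a pair. The difference between NT and transduced cells gave 0 calls by limma and edgeR and 64 by DESeq2. Fewer transcripts or samples enter some of these fits, and otherwise the cause was not tested. Higher calls were 678 of 1471 by limma (46.1%), 1276 of 2235 by edgeR (57.1%) and 1768 of 3130 by DESeq2 (56.5%). DESeq2 for the difference, edgeR without a pair, the limit on reads per base and the median marker ratio were chosen after seeing the data.

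The labels give no replicate numbers, so the 2 libraries of a context are the only pairs and the context is the block of the limma fit. Without the context block limma called 999 transcripts. With 1 library a group, only the counting error of a difference within a context is known, and few reads on Acp5, Mitf, Oscar and Trem2 give wide intervals.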
